A study of Mus musculus with 53 samples.

Results

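A set of 38 genes of hepatic cholesterol and fatty acid synthesis was followed through the livers of mice given a Western diet, carbon tetrachloride or a partial hepatectomy. The 38 genes were read by symbol from the deposited gene tables, which list 38293 genes for the diet experiment, 38293 for the carbon tetrachloride experiment and 53379 for the hepatectomy experiment. They fall into a sterol branch of 19 genes, a fatty acid branch of 14 genes and 5 regulators. All 38 were present in each table and had enough counts to be tested in each experiment.

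Hepatocytes make cholesterol from acetyl-CoA through the mevalonate pathway, and the genes of that pathway are driven by the transcription factor SREBP2, the product of Srebf2. When sterol is scarce, SREBP2 is carried from the endoplasmic reticulum to the Golgi and cleaved there, and when sterol is plentiful the INSIG proteins hold it back. Fatty acid synthesis draws on the same acetyl-CoA but is driven mainly by SREBP1c, from Srebf1, which responds to insulin and to the oxysterol receptor LXR, and by ChREBP, from Mlxipl, which responds to sugar.

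The promoters of the members were searched for DNA letters associated with this control, and those of 6 members are shown. RefSeq promoters on GRCm38.p6 were found for 31 of the 38 members, as 41 promoters. The letters TCACNCCAC, a form of the sterol regulatory element, the letters CCAAT, the box bound by NF-Y, and the letters CACGTG, an E-box of the kind ChREBP and SREBP can bind, were searched on both strands in the 250 bases before each start. CCAAT lay in 27 of the 41 member promoters (65.9%), against 33.8% of all 32851 promoters in the table. By branch it lay in 14 of 18 sterol promoters, 7 of 13 fatty acid promoters and 6 of 10 promoters of regulators. TCACNCCAC was in 2 of 41 (4.88%), against 1.05% of all promoters, and CACGTG in 6 of 41 (14.6%), against 6.02%. The 180 bases before the start are given 5′ to 3′ along the gene for 4 sterol enzymes, 1 fatty acid enzyme and 1 regulator named in the results, with every match in capitals. All 6 hold a match, whereas Acly, Acaca, Acat2, Elovl6 and Fads2 held none of the letters searched. Of the 6 stretches shown, only that of Hmgcs1 holds TCACNCCAC, and those of Mvd, Nsdhl, Ebp and Fasn hold CCAAT alone. Mlxipl has a further promoter, not shown, in which TCACNCCAC began 136 bases before the start. CCAAT on the other strand reads ATTGG, and in Fasn a pair of matches on opposite strands overlap as CCAATTGG. In Hmgcs1 the sterol element letters began 137 bases before the start, and in the Mlxipl stretch shown the E-box letters began 98 bases before it. A match of letters is a description of the sequence and not a bound site.
Hmgcs1 (chr13:119690171-119690350, plus strand): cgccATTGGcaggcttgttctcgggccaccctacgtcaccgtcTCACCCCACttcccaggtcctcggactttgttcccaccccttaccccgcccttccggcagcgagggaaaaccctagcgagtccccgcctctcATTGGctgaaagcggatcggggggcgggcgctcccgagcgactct
Mvd (chr8:122443423-122443602, minus strand): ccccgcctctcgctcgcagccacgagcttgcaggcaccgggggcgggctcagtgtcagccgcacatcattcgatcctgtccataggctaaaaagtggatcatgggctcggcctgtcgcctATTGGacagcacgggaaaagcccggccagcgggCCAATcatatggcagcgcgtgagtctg
Nsdhl (chrX:72918341-72918520, plus strand): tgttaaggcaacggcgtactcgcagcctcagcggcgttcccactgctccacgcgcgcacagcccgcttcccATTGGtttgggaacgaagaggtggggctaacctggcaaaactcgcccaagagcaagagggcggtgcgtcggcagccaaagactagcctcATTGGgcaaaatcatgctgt
Ebp (chrX:8193513-8193692, minus strand): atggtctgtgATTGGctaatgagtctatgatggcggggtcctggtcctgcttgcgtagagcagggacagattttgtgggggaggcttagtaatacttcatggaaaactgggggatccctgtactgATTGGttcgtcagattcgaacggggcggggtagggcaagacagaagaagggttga
Fasn (chr11:120824548-120824727, minus strand): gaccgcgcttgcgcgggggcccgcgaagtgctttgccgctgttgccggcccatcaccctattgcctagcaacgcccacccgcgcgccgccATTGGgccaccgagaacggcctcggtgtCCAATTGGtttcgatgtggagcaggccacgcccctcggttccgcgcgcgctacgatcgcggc
Mlxipl (chr5:135089710-135089889, plus strand): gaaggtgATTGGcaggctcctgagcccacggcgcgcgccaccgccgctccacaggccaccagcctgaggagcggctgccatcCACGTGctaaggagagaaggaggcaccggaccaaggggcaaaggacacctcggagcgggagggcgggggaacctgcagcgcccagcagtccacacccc

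Bone morphogenetic protein 8b (Bmp8b) is the gene under study in the series. The messenger RNA of 53 liver samples, called livers here, was sequenced as 1 library each in 3 experiments with 9 groups. Every animal was a male C57BL/6J mouse, either labelled as carrying the Bmp8b knockout or a wild-type littermate, and the labels name no tissue-specific Cre. In the diet experiment, mice aged 9 weeks at the start were fed for 32 weeks: 7 labelled knockouts and 7 wild types had a Western diet (Teklad TD88137), and 9 wild types had a low-fat control diet (Teklad TD08485). In the toxin experiment, mice aged 16 weeks received 2 ul per g of a CCl4 and olive oil mixture in equal volumes (6 labelled knockouts, 4 wild types) or olive oil alone (6 wild types) into the peritoneum, and were killed after 3 days. In the surgery experiment, also at 16 weeks, livers were taken on day 3 after partial hepatectomy from 4 labelled knockouts and 5 wild types, and the day 0 group is the tissue resected from 5 wild types. No low-fat, olive oil or day 0 group was labelled knockout, so the label was compared only within each challenge. Library totals were 8963187 to 15196537 counts in the diet experiment, 2661699 to 6364414 in the toxin experiment and 2450358 to 6914274 in the surgery experiment. Counts summed over the Bmp8b gene were not lower in any labelled knockout group than in its wild types, with medians of 1.68 against 1.24 CPM (each count divided by its library total and scaled up) on Western diet, 0.901 against 0.264 CPM after CCl4 and 2.38 against 0.890 CPM at day 3, so they do not check the label. The libraries were made with different i5 indices, the second of the barcodes that mark a library, and this index is used here as a batch mark. The library names also carry a first index and a prefix that the toxin and surgery libraries share, and neither was used. CCl4 livers 34 (wild type) and 35 (labelled knockout) and the olive oil livers of the 2 indices stood apart from the rest of their groups, and results that rest on them are given both ways. Levels below are CPM after TMM scaling, fold changes are log2 with their standard errors (SE), and a gene is called changed where the adjusted p of edgeR's quasi-likelihood test (two-sided, Benjamini-Hochberg over all genes tested in that experiment) is under 0.05. In bulk tissue, fewer cells of a type and less RNA per cell cannot be told apart.

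Across unchallenged livers, per kilobase of exon, Scd1 was the most abundant member in each experiment, at a mean of 5817 CPM per kb in low-fat livers, 1566 in olive oil livers and 828 at day 0. The olive oil mean rests on the 3 livers of index D505, at 3006 CPM per kb; in the 3 of index D504 Scd1 was at 125 CPM per kb and Thrsp, at 180, was the most abundant member. Scd1 encodes the stearoyl-CoA desaturase that makes oleate and palmitoleate, and its neighbour Scd2 on chromosome 19, the isoform best known from brain and neonatal liver, stood at 2.02, 1.61 and 1.00 CPM per kb in the same groups. Of the sterol enzymes, Hmgcs1 was at 116 CPM per kb in olive oil livers and 159 at day 0. The hepatectomy table lists more genes than the others, and levels are not compared between tables. In it Idi1 averaged 2.39 CPM at day 3 and 3.36 CPM at day 0, and Fdps 33.6 and 46.4 CPM. Idi1 had 1 to 35 counts in the hepatectomy libraries and still entered the sterol counts, medians and levels of that experiment. In GENCODE vM21, Fdps shares 26.7% of its exon bases with Gm43738 and Tm7sf2 12.1% with Vps51, both on the same strand. On the other strand, Fdft1 shares 18.3% with Ctsb, Hmgcs1 12.1% with Gm48342 and Idi1 9.22% with Gm48574. Any overlap of the other members is smaller than these. Reads there may be lost or shared in counting. The part of such overlap in the low Idi1 and Fdps levels was not tested, and Hmgcs1 was at 452 to 954 CPM at day 0.

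**Figure D1:**
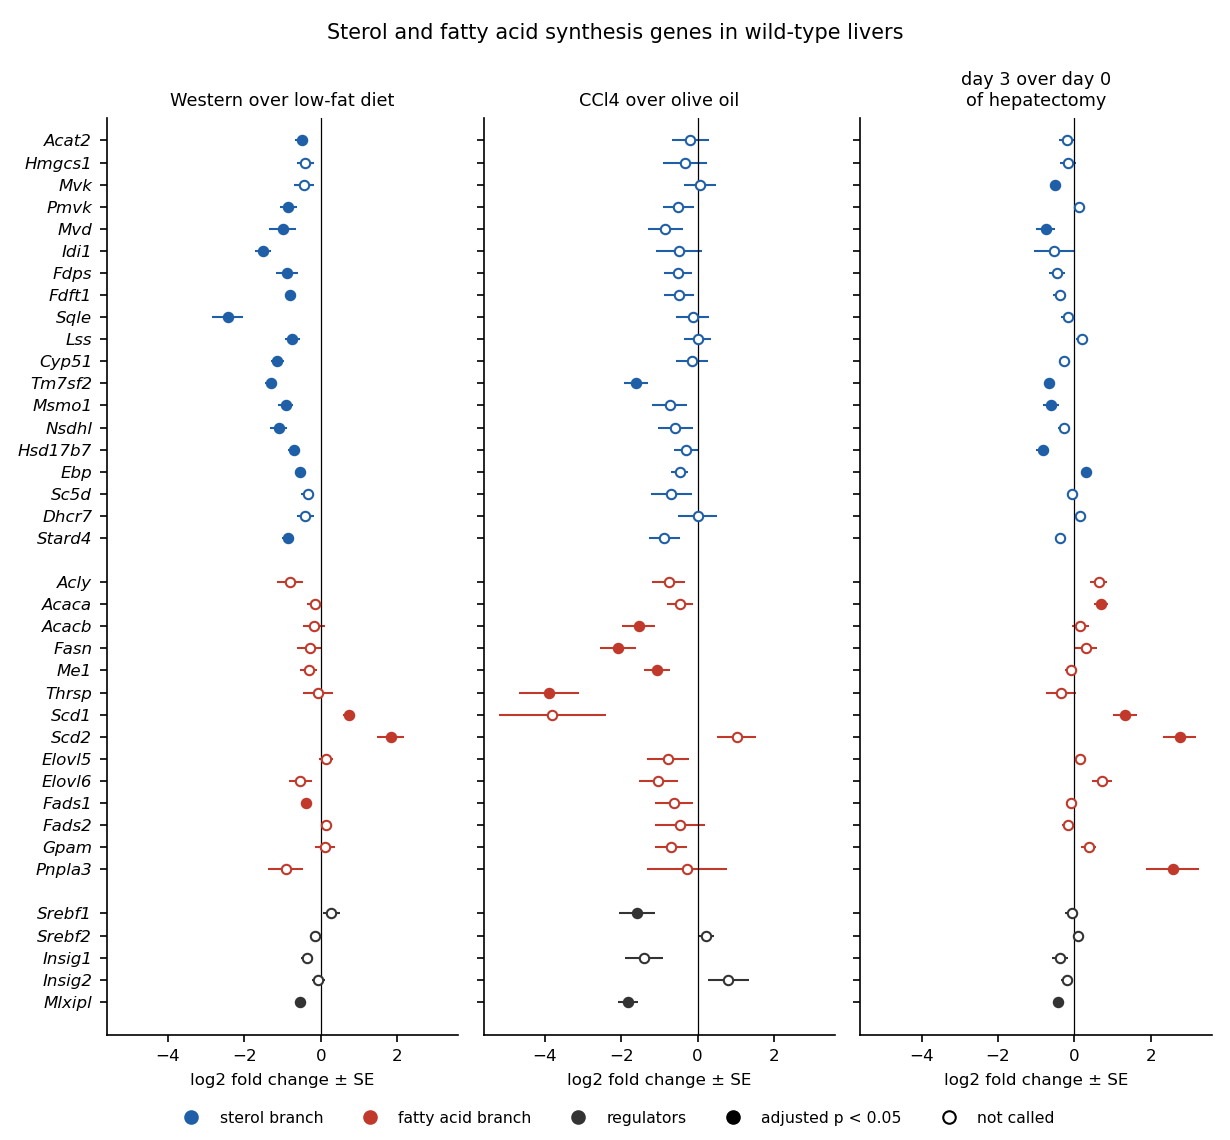
Log2 fold change with its SE of each of the 38 members in wild-type livers, for Western against low-fat diet, CCl4 against olive oil, and day 3 against day 0 of hepatectomy; filled points passed the test at an adjusted p under 0.05. Sterol enzymes lie below 0 on Western diet (19 of 19), Thrsp is the lowest member after CCl4 (-3.90), and Scd2 is the highest at day 3 (2.75).

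Western diet and low-fat diet were set against each other in wild-type livers to show what long feeding of a diet rich in fat and cholesterol did to each branch. Sterol synthesis genes fell along most of the pathway: 15 of the 19 were called lower, none was called higher, and all 19 had a fold change below 0, with a median of -0.85. Of the 14 fatty acid genes 11 were not called, Scd1 and Scd2 were higher, Fads1 was lower, and the branch median was -0.18. That median depended on single livers, at -0.02 without low-fat liver 26 and -0.28 without Western diet liver 36, and it was 0.17 within index D501 and -0.39 within D502. Among the 38 members 19 were called, 2 higher and 17 lower, against 37.4% of all 13005 genes tested (20.4% higher, 17% lower), whose median fold change was -0.02.

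Sqle, squalene epoxidase and one of the slow steps of the pathway (chr15:59315077-59331192, GRCm38), had a lowest, median and highest level of 3.52, 5.93 and 15.0 CPM in Western diet livers, against 13.6, 37.7 and 86.8 CPM in low-fat livers. The highest Western diet liver lay just above the lowest low-fat liver, and the difference was the largest of the branch, at -2.44 (SE 0.41; adjusted p = 7.66e-05). Idi1, which isomerises isopentenyl diphosphate, stood at 23.02, 33.7 and 47.4 CPM against 54.6, 93.2 and 167 CPM. Its groups did not overlap, and it was lower, at -1.51 (SE 0.21; adjusted p = 1.04e-05). Tm7sf2, a sterol C14 reductase, had 28.7, 46.1 and 68.9 CPM in Western diet livers and 82.3, 118 and 138 CPM in low-fat livers. It too showed no overlap and had the smallest adjusted p among the members (-1.30, SE 0.16; adjusted p = 4.09e-06). Groups did not overlap for 2 of the 38 members, against 7.27% of all genes tested.

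Hmgcs1, the HMG-CoA synthase at the entry of the pathway, had 118, 195 and 304 CPM on Western diet and 154.5, 237.5 and 509 CPM on low-fat diet, and was not called (-0.41, SE 0.22; adjusted p = 0.148). The early enzymes Acat2 (-0.50, adjusted p = 0.0248), Pmvk (-0.85, 0.00521), Mvd (-0.999, 0.0286), Fdps (-0.89, 0.0194) and Fdft1 (-0.80, 0.000277), which carry acetyl units to squalene, were called lower. The post-squalene enzymes were also called lower: Lss (-0.74, 0.0034), which closes the sterol rings, Cyp51 (-1.14, 3.38e-05) and Msmo1 (-0.92, 0.000474), which remove methyl groups, Nsdhl (-1.10, 0.000382) and Hsd17b7 (-0.70, 0.00109) of the same demethylation complex, and Ebp (-0.55, 0.000689), the sterol isomerase. Stard4, which carries cholesterol between membranes and is an SREBP2 target, was lower at -0.87 (7.01e-05). Mvk, Sc5d and Dhcr7 were not called, at -0.43 to -0.35. The genes not called sat at both ends of the pathway. Acat2 and Mvd lost their call when some single livers were left out (adjusted p up to 0.0594 and 0.0671).

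Neither Srebf2 nor Insig1, the regulators of the sterol branch, was called. Srebf2 had a lowest, median and highest level of 33.6, 43.5 and 48.9 CPM in Western diet livers, against 32.0, 46.0 and 63.9 CPM in low-fat livers (-0.14, SE 0.12; adjusted p = 0.392). Insig1, which retains SREBP in the endoplasmic reticulum and is itself an SREBP target, had 176, 301 and 408 CPM against 246, 437 and 500.8 CPM (-0.36, SE 0.16; adjusted p = 0.085). Both groups overlapped widely, and the Srebf2 transcript does not report how much SREBP2 protein was cleaved. Of 15 further genes of sterol sensing, SREBP processing and side branches, 1 was called higher and 4 lower; Rdh11, a retinol dehydrogenase, was at -1.28 (adjusted p = 0.000108) and Scap, the SREBP escort protein, at -0.67 (0.000394). Of 11 genes of LXR, sterol efflux and esterification 6 were called higher and 1 lower; Abcg1, a sterol exporter, was at 1.75 (3.7e-06), Soat1, which esterifies cholesterol, at 1.47 (3.09e-05), and Mylip, an LXR target, at 0.66 (0.000222).

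In the fatty acid branch, Scd1 had 38443, 48636 and 61152 CPM in Western diet livers and 19769, 30274 and 47753 CPM in low-fat livers. The groups overlapped, and Scd1 was higher by 0.74 (SE 0.17; adjusted p = 0.0012). Scd2 was at 16.7, 45.7 and 56.1 CPM against 4.58, 10.4 and 21.5 CPM, and was higher by 1.83 (SE 0.35; adjusted p = 0.000277). Acly, ATP citrate lyase, which supplies cytosolic acetyl-CoA to both branches, had 183, 524.5 and 671 CPM on Western diet and 312, 665 and 2091 CPM on low-fat diet, and was not called (-0.81, SE 0.34; adjusted p = 0.0614). Fasn, the fatty acid synthase, had 635, 1830 and 2780 CPM against 856, 1772 and 4671 CPM (-0.30, SE 0.33; adjusted p = 0.506). The low-fat livers were widely spread for Acly and Fasn, with the highest liver several times the lowest. Fads1, the delta-5 desaturase, was lower (-0.40, adjusted p = 0.0152), and the other 9 genes that were not called, from Acaca to Thrsp and Pnpla3, lay between -0.92 and 0.15.

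Srebf1 had 396, 622 and 674 CPM in Western diet livers and 213, 467 and 688 CPM in low-fat livers, with wide overlap (0.27, SE 0.22; adjusted p = 0.359). Mlxipl had 330.3, 426 and 663 CPM against 591, 691 and 757.5 CPM. Of the 7 Western diet livers 5 were below the whole low-fat range, and Mlxipl was lower, at -0.53 (SE 0.13; adjusted p = 0.00189). Of 10 genes of glycolytic and NADPH supply 2 were called higher and 2 lower, among them Txnip, a ChREBP target, at 0.58 (0.000281) and Acss2, which makes acetyl-CoA from acetate, at -0.93 (0.0114). Of 15 genes of other elongation and glycerolipid steps none was called higher and 3 lower, with Elovl2, an elongase of polyunsaturated fatty acids, at -0.87 (3.21e-06), Elovl3 at -1.94 (0.00817) and Dgat2, a triglyceride synthase, at -0.42 (0.0043). None of 10 clock genes tested was called, and 1 of them was under an unadjusted p of 0.05.

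**Figure D2:**
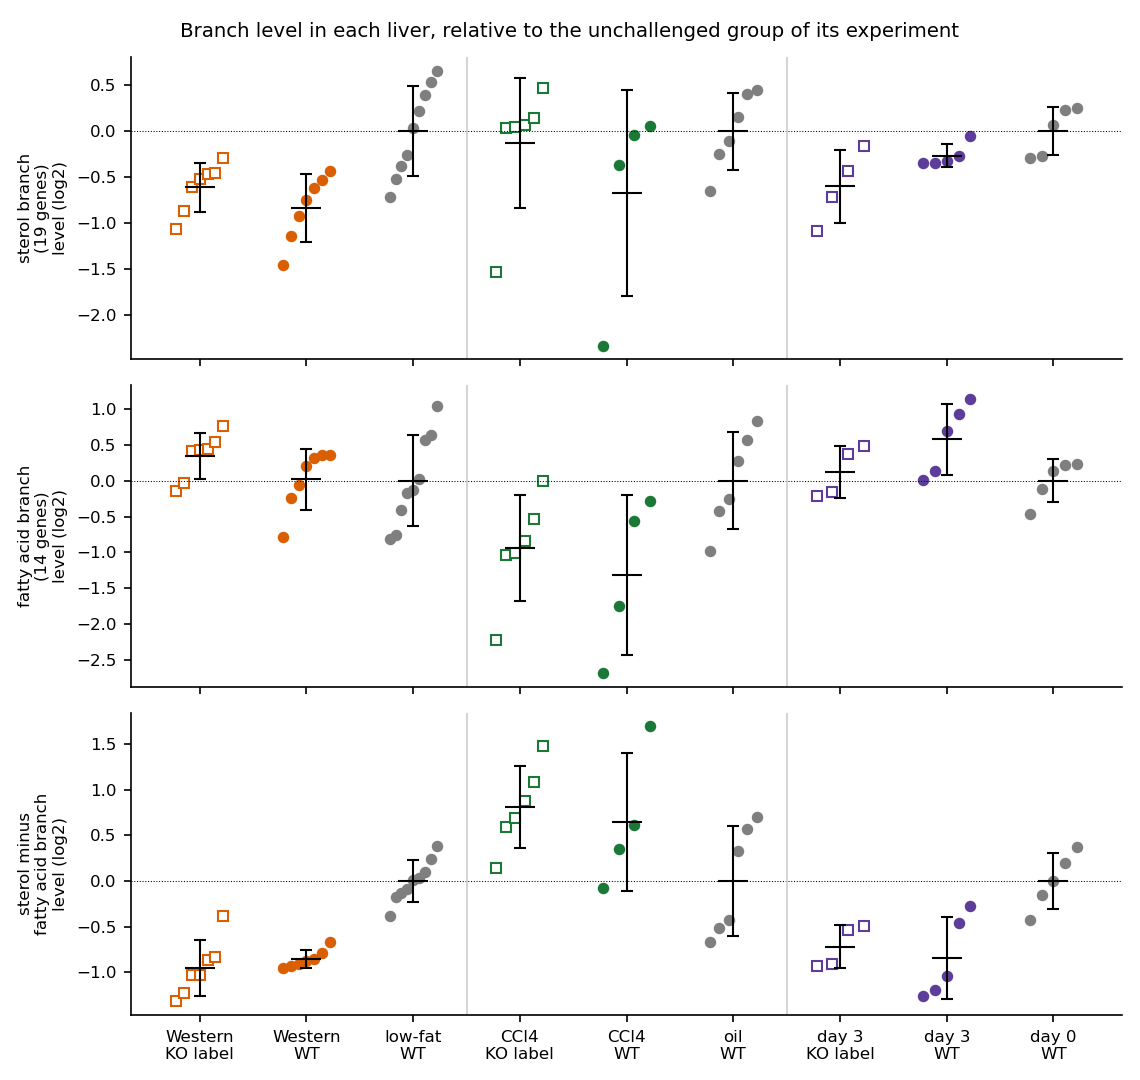
Branch level of each of the 53 livers by group, for the sterol branch, the fatty acid branch and the sterol minus fatty acid difference; a level is the mean over the branch of log2(CPM + 0.5) minus the mean of each gene in the unchallenged group of its experiment, points are livers and bars are group means ± SD. On Western diet the difference lies between -0.95 and -0.67 in wild types, below every low-fat liver.

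Averaged over each branch as log2(CPM + 0.5) relative to the low-fat mean, the sterol level was -0.83 ± 0.37 (SD, n = 7) in Western diet wild types and 0 ± 0.49 (SD, n = 9) in low-fat livers, and the fatty acid level 0.02 ± 0.42 and 0 ± 0.64. Within a liver, the sterol minus fatty acid difference ran from -0.95 to -0.67 in Western diet wild types, against -0.38 to 0.39 in low-fat livers, without overlap. No test was made of these levels, since the members were chosen. Within index D501 alone 16 members were called (11 sterol genes lower, 4 fatty acid genes higher), against 3645 of all 13008 genes tested. Within D502 alone 9 were called, all of them sterol genes called lower, against 1401 of all 13473 genes tested. Beside this fall, hepatocyte markers summed to 61943 to 91521 CPM in Western diet wild types, against 94914 to 129224 CPM in low-fat livers, and 6 of 8 were called lower. Macrophage markers summed to 349.7 to 749 against 129.9 to 347 CPM (6 of 6 higher) and stellate markers to 387 to 853 against 204 to 307 CPM (6 of 6 higher), and their part in the result was not tested. Adipocyte markers were up to 23.6 CPM in low-fat livers. Without low-fat liver 18, the highest, 20 members were called, and the share of all genes in that rerun is not given here.

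**Figure D3:**
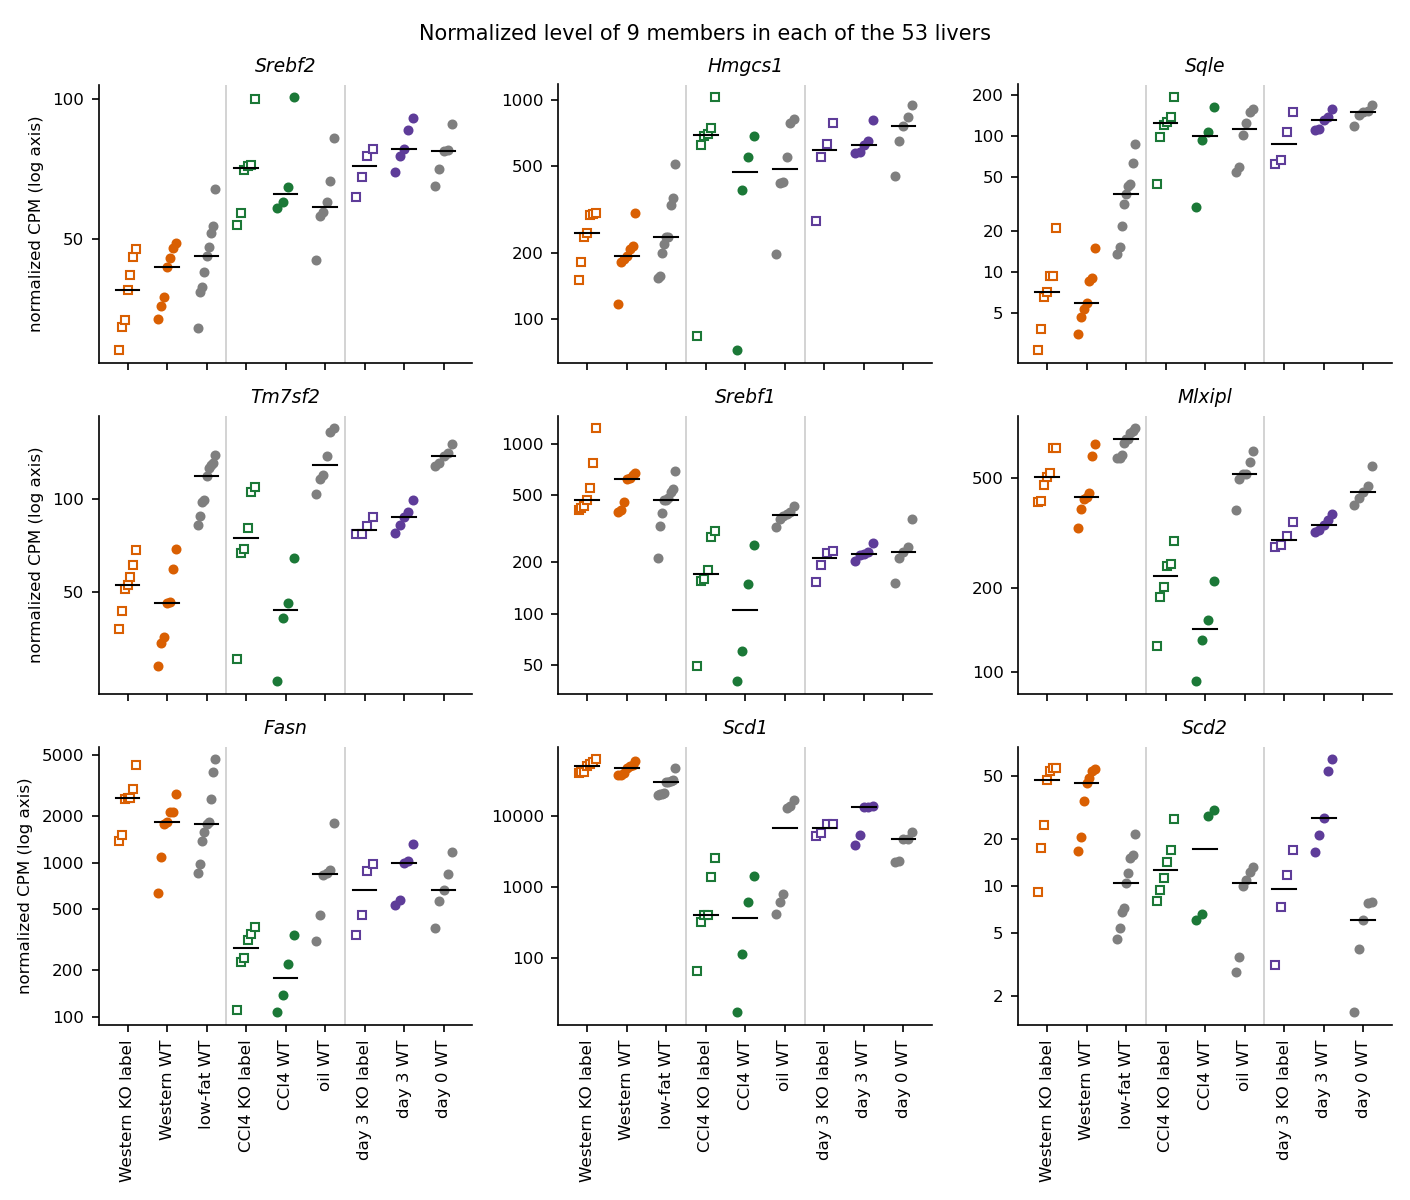
CPM of 9 members in each of the 53 livers on log axes, by group, with points for livers and a bar at each group's median; open squares are labelled knockouts. Sqle is at 3.52 to 15.0 CPM in Western diet wild types, against 13.6 to 86.8 CPM in low-fat livers, and Scd1 in olive oil livers falls into a high and a low set.

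CCl4, a hepatotoxin that hepatocytes convert to a radical, was set against olive oil in wild-type livers 3 days after injection. Of the 14 fatty acid genes 4 were called lower, Thrsp, Fasn, Acacb and Me1, and of the 5 regulators 2, Srebf1 and Mlxipl, with fold changes of -3.90 to -1.06. The fatty acid median was -0.77, or -0.51 without CCl4 liver 34. In the sterol branch 17 of 19 genes had a fold change below 0, with a median of -0.49, but only Tm7sf2 was called, and without liver 34 the median was -0.20. In all 7 members were called, every one lower, against 20% of all 11663 genes tested (11.1% higher, 8.87% lower), whose median was 0.05.

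Thrsp, a lipogenic protein that follows carbohydrate feeding (chr7:97412938-97417730, GRCm38), had 7.08, 22.9, 48.8 and 3.87 CPM in CCl4 livers 4, 5, 7 and 34, against a lowest, median and highest of 73.7, 229.9 and 722.5 CPM in olive oil livers. Every CCl4 liver was below every olive oil liver, at -3.90 (SE 0.79; adjusted p = 0.00328). Fasn had 138, 219, 341 and 107 CPM in the CCl4 livers and 312, 845 and 1797 CPM in the olive oil livers, and liver 7 reached into the olive oil range (-2.09, SE 0.47; adjusted p = 0.0062). Acacb, the carboxylase whose malonyl-CoA restrains fatty acid oxidation, was lower, at -1.55 (adjusted p = 0.0198), and Me1, the malic enzyme that supplies NADPH, at -1.06 (0.0408). Leaving out single livers gave adjusted p up to 0.0588 for Acacb, 0.113 for Me1 and 0.0799 for Srebf1. The rerun without CCl4 liver 5 called 4 members, and its share of all genes is not given here. Against the D504 oil livers alone Fasn was at -1.47 (adjusted p = 0.0571), Acacb at -1.09 (0.127) and Me1 at -0.74 (0.196), none of them called, and against the D505 oil livers alone Fasn was at -2.53 (0.0121), Acacb at -1.90 (0.0333) and Me1, not called, at -1.32 (0.0665). Thrsp was called against either set, at -4.24 (0.00674) and -3.46 (0.0318) in the same order.

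Srebf1 had 60.3, 149, 252 and 39.9 CPM in CCl4 livers, against 322, 379.5 and 432 CPM in olive oil livers. The groups did not overlap, and Srebf1 was lower (-1.59, SE 0.48; adjusted p = 0.0281). Mlxipl had 92.5, 154, 212.5 and 130.2 CPM in CCl4 livers, against 384, 519 and 629 CPM in olive oil livers. It did not overlap either and had the smallest adjusted p of the members (-1.82, SE 0.26; adjusted p = 0.000409). Tm7sf2 had 41.1, 64.2, 46.0 and 25.7 CPM against 103, 128 and 169 CPM, again without overlap (-1.60, SE 0.31; adjusted p = 0.00259). Groups did not overlap for 5 of the 38 members, against 16.9% of all genes tested; the fifth was Stard4, which was not called (-0.87, adjusted p = 0.139). Against the D504 and the D505 oil livers alone, Mlxipl (-1.69 and -1.94) and Tm7sf2 (-1.53 and -1.68) were called each time, and Srebf1 neither time (-1.54, adjusted p = 0.104, and -1.64, 0.116).

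Scd1 had 17.1, 619, 1438 and 112 CPM in CCl4 livers, against 423, 6894 and 16947 CPM in olive oil livers, and was not called at -3.81 (SE 1.40; adjusted p = 0.0648). Its fold change was -0.17 (adjusted p = 0.9399) against the D504 oil livers alone and -4.75 (0.0477) against the D505 oil livers alone. Acly had 159, 289, 349 and 85.7 CPM in CCl4 livers and 154, 402 and 548 CPM in olive oil livers (-0.76, SE 0.43; adjusted p = 0.223). Insig1 had 194, 283, 273 and 27.8 CPM against 255.5, 549.9 and 681 CPM (-1.41, SE 0.50; adjusted p = 0.0573). In each of these, liver 34 or liver 4 was lowest and the groups overlapped.

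Hmgcs1 had 552, 682, 389 and 72.4 CPM in CCl4 livers 4, 5, 7 and 34, against 199, 485 and 816 CPM in olive oil livers (-0.33, SE 0.58; adjusted p = 0.7296). Sqle had 162, 106, 93.1 and 30.02 CPM against 54.5, 112.5 and 156.5 CPM (-0.13, SE 0.42; adjusted p = 0.855). For both enzymes liver 34 was far below the other CCl4 livers, which lay within the olive oil range or close to its upper end. Srebf2 had 101, 58.2, 64.7 and 60.03 CPM in CCl4 livers, against 45.0, 58.6 and 82.5 CPM in olive oil livers (0.21, SE 0.20; adjusted p = 0.491). The sterol level was -0.04, 0.06, -0.36 and -2.33 in CCl4 livers 4, 5, 7 and 34, against -0.65 to 0.44 in olive oil livers, and the fatty acid level -1.74, -0.56, -0.28 and -2.68 against -0.99 to 0.83. Liver 34 also had the lowest dividing-cell markers of its group, at 18.4 CPM, against up to 455 CPM in the other CCl4 wild types, and labelled knockout liver 35 had 18.3 CPM, a sterol level of -1.53 and a fatty acid level of -2.22. Without livers 34 and 35, 9 of the 38 members were called, against 2923 of all 11734 genes tested. Among the 9 were 2 sterol and 4 fatty acid genes, all lower.

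**Figure D4:**
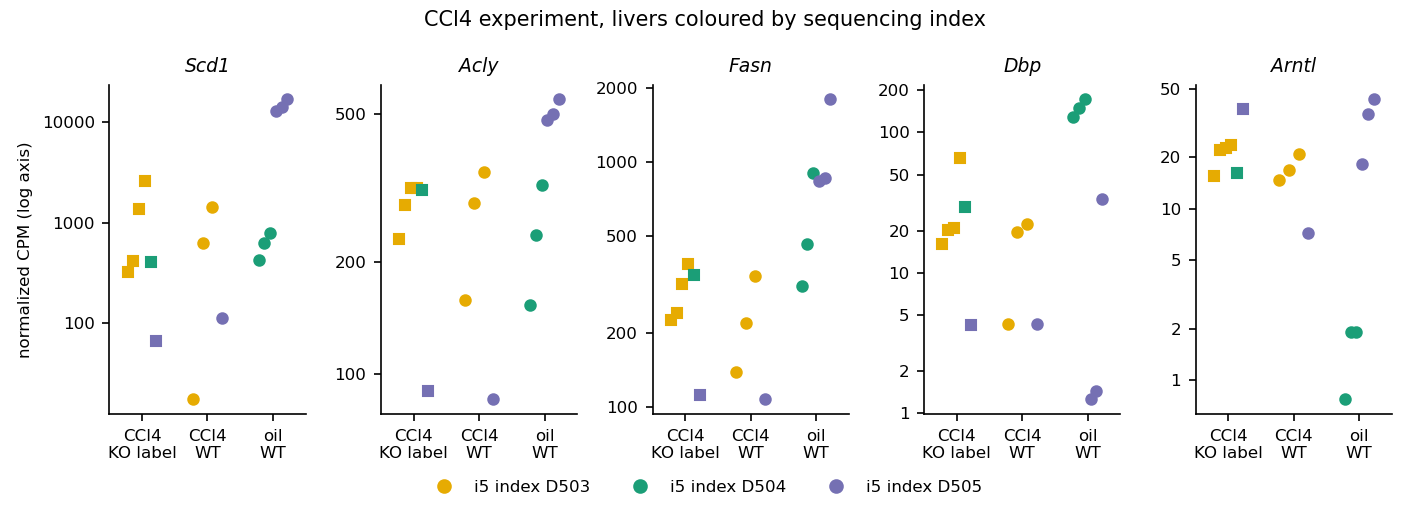
CPM of Scd1, Acly, Fasn and the clock genes Dbp and Arntl in the livers of the CCl4 experiment on log axes, by group; each point is a liver, squares are labelled knockouts and colours mark the i5 index. Scd1 was 12994 to 16947 CPM in the D505 oil livers and 423 to 793 CPM in the D504 oil livers.

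The olive oil livers themselves fell into sets of 3 by index. Scd1 was 12994 to 16947 CPM in the oil livers of index D505 (28, 29, 30) and 423 to 793 CPM in those of D504 (24, 26, 27), a 24.0-fold difference of means, and Acly 482 to 548 CPM against 154 to 322 CPM. The fatty acid level was 0.27 to 0.83 in D505 and -0.99 to -0.26 in D504, while the sterol levels overlapped. Between the 2 indices 6 of 14 fatty acid genes did not overlap, all higher in D505, and 3 of 19 sterol genes, against 25.6% of all genes tested. Clock genes split the same livers: Arntl, the core clock activator also called Bmal1, was 18.2 to 43.5 CPM in D505 and 0.772 to 1.92 CPM in D504, and Dbp, a clock output gene, 1.26 to 33.7 CPM against 128 to 171 CPM. Index and whatever moved the clock genes cannot be told apart here. In the comparison with all 6 oil livers, 1 of 9 clock genes tested was called, Nr1d1 (-1.40, adjusted p = 0.0275). With the D504 oil livers alone as controls 3 members were called, Thrsp, Mlxipl and Tm7sf2, against 1436 of all 11827 genes tested. The fatty acid median was then -0.32. With the D505 oil livers alone 6 were called, these 3 with Fasn, Acacb and Scd1, and the fatty acid median was -1.24. In that run more members, but fewer of all genes tested, were called than with the D504 oil livers alone. CCl4 wild types 4, 5 and 7 carry index D503, which no oil liver has. D505 holds 1 CCl4 wild type and D504 none, so no within-index comparison could be made. With index as a covariate 20 members were called, against 3599 of all 11663 genes tested. In that fit only CCl4 livers 34, 35 and 22 have an index in common with any oil liver, and 34 and 35 are those that stood apart from their groups.

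Among the wider lists, 5 of 11 LXR and efflux genes were called lower after CCl4 and 1 higher, with Lpcat3, a phospholipid remodelling enzyme, at -0.85 (adjusted p = 0.0014), the sterol exporter subunits Abcg8 at -1.26 (0.00186) and Abcg5 at -1.43 (0.00288), and Soat1 at 2.15 (0.00656). Of 10 glycolytic and NADPH genes 5 were called lower and 1 higher; Khk, ketohexokinase, was at -1.64 (0.00469) and Pgd, of the pentose phosphate path, at 1.04 (0.00878). Of 15 further lipid synthesis genes 5 were called lower, including Elovl3 at -5.18 (0.000978), Dgat2 at -1.31 (0.00203) and Mid1ip1, a partner of Thrsp, at -1.69 (0.00994). Of 15 SREBP processing and side-branch genes 2 were called lower, Aacs at -1.94 (0.00714) and Cyb5r3 at -0.88 (0.0363). Beside these values, none of 8 hepatocyte markers was called, with sums of 75626 to 131889 CPM in CCl4 wild types and 104739 to 142326 CPM in olive oil livers. Dividing-cell markers summed to 18.4 to 455 against 1.91 to 9.56 CPM (4 of 4 higher) and stellate markers to 427 to 1052 against 108 to 299 CPM (3 of 6 higher), and their part in the result was not tested.

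Partial hepatectomy makes the remaining liver regrow, and day 3 was set against the resected tissue of day 0 in wild types. The stearoyl-CoA desaturase genes rose and several sterol enzymes fell: 5 sterol genes were called lower and 1 higher, and 4 fatty acid genes were called higher and none lower. The median fold change was -0.28 in the sterol branch and 0.34 in the fatty acid branch, the second of them 0.16 without day 3 liver 12. In all 11 members were called, 5 higher and 6 lower, against 17.4% of all 11026 genes tested (9.87% higher, 7.5% lower), whose median was -0.01.

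Scd2 had 54.0, 21.1, 16.4, 27.1 and 64.2 CPM in day 3 livers 12 to 16, against 6.11, 3.95, 7.91, 1.57 and 7.84 CPM in day 0 livers 12 to 16. No day 3 liver was as low as a day 0 liver, and Scd2 was higher by 2.75 (SE 0.42; adjusted p = 0.000105). Scd1 had 13497, 13909, 3905, 5444 and 13569 CPM at day 3 and 2289, 2371, 4723, 6109 and 4757 CPM at day 0. It was higher by 1.31 (SE 0.32; adjusted p = 0.00611), although day 3 livers 14 and 15 stayed within the day 0 range. Acaca, the carboxylase that starts fatty acid synthesis, was higher by 0.70 (adjusted p = 0.0106). Pnpla3, a lipid droplet hydrolase that follows SREBP1c, was higher by 2.57 (0.0133) at levels of 1.79 to 12.5 CPM at day 3 and 0 to 2.88 CPM at day 0, and was not called without day 3 liver 12 (1.95, adjusted p = 0.0662).

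Acly had 897, 465, 310 and 374 CPM in day 3 livers 12 to 15 and 706.4 CPM in liver 16, against 366, 228, 383, 380 and 423 CPM at day 0, and was not called (0.63, SE 0.23; adjusted p = 0.068). Fasn had 1316, 1026, 533.5, 571 and 992 CPM at day 3 and 567, 376, 1170, 664 and 846 CPM at day 0 (0.29, SE 0.30; adjusted p = 0.564). Day 3 livers 12, 13 and 16 were the high ones for Scd1, Acly and Fasn alike, and the fatty acid level was 1.14, 0.69, 0.01, 0.14 and 0.92 in day 3 livers 12 to 16, against -0.46 to 0.23 at day 0. Day 3 liver 12 also held adipocyte transcripts, with Adipoq at 7.01 CPM and a summed level of 43.9 CPM, against at most 0.447 CPM at day 0. Without it 9 members were called, 4 sterol genes lower and 3 fatty acid genes higher. The share of all genes called in that rerun is not given here.

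In the sterol branch, Tm7sf2 had 77.4, 90.8, 99.04, 82.2 and 87.0 CPM at day 3, against 140.0, 130.5, 151, 128 and 138 CPM at day 0. Groups did not overlap, and Tm7sf2 was lower, at -0.66 (SE 0.09; adjusted p = 3.2e-05). Hsd17b7 had 72.95, 54.0, 55.4, 57.0 and 52.2 CPM against 116, 86.1, 107, 87.8 and 124 CPM (-0.83, SE 0.17; adjusted p = 0.0016), and Mvk, mevalonate kinase, had 41.0, 39.5, 32.5, 35.2 and 35.2 CPM against 60.7, 48.9, 59.0, 44.5 and 45.1 CPM (-0.50, SE 0.12; adjusted p = 0.00759). Both were lower in every day 3 liver than in any day 0 liver. Mvd (-0.76, adjusted p = 0.0493) and Msmo1 (-0.61, 0.0481) were lower, and Ebp was higher (0.30, 0.0239). All 3 of these calls were lost when some single livers were left out, with adjusted p up to 0.198 for Mvd, 0.121 for Msmo1 and 0.0636 for Ebp; Mvd was at -0.48 without day 0 liver 12. Groups did not overlap for 5 of the 38 members, against 13% of all genes tested.

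Hmgcs1 had 808, 580.3, 652.5, 622.5 and 571.5 CPM at day 3 and 954, 648, 762, 452 and 839.7 CPM at day 0 (-0.18, SE 0.21; adjusted p = 0.623). Sqle had 155.5, 109.8, 111, 137 and 129 CPM against 148, 142, 153, 118 and 167 CPM (-0.18, SE 0.18; adjusted p = 0.562). The groups overlapped for both. The other sterol genes that were not called lay between -0.52 and 0.20.

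Mlxipl had 370.0, 325, 339, 354 and 319 CPM at day 3, against 446.5, 423, 552, 400.2 and 469 CPM at day 0. All day 3 livers were below all day 0 livers (-0.42, SE 0.10; adjusted p = 0.0038). Srebf1 had 223, 222, 231, 258.5 and 203 CPM at day 3 and 212, 230.2, 359, 246 and 151 CPM at day 0 (-0.08, SE 0.16; adjusted p = 0.806). Srebf2 had 78.2, 69.7, 85.8, 91.1 and 75.4 CPM against 77.7, 77.4, 70.9, 65.0 and 88.5 CPM (0.08, SE 0.11; adjusted p = 0.676). Insig1 had 226, 201, 230.3, 209 and 164 CPM at day 3 and 347, 194, 364, 176 and 253 CPM at day 0 (-0.37, SE 0.21; adjusted p = 0.258). For these last 3 regulators the groups overlapped.

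Of 15 further lipid synthesis genes 4 were called higher and 3 lower at day 3; Acsl5, a fatty acyl-CoA synthetase, was at 0.71 (adjusted p = 6.42e-05), Elovl3 at -1.76 (1.74e-05), Dgat2 at -0.65 (0.000135) and Mid1ip1 at -1.27 (0.00186). Of 10 glycolytic and NADPH genes 2 were called higher and 2 lower; the pentose phosphate enzymes Pgd and G6pdx were at 0.68 (0.00341) and 1.40 (0.0476). Of 15 SREBP processing and side-branch genes 2 were called higher and 1 lower; Scap was at -0.58 (0.000699), Tmem97, a sterol-regulated membrane protein, at 0.55 (0.00173) and Por, which feeds electrons to Cyp51 and Sqle, at 0.60 (0.00371). Of 11 LXR and efflux genes 1 was called, Abcg8, at -0.97 (2.52e-05). Of 9 clock genes tested 1 was called higher and 4 lower, among them Nr1d1 at -0.95 (0.00219) and Npas2 at 1.40 (0.0101). Dividing-cell markers summed to 80.7 to 215 CPM at day 3 and 1.69 to 8.12 CPM at day 0 (4 of 4 higher). Hepatocyte markers summed to 132682 to 153848 against 89466 to 108085 CPM. Of the 8 hepatocyte markers 1 was called higher, 1 lower and 6 were not called, with a median fold change of 0.18. The part of these markers in the result was not tested. All day 3 livers carry index D507 and no day 0 liver does, so index and day cannot be told apart.

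Mlxipl and Tm7sf2 were called lower in wild types in all 3 challenges. Of all genes tested 17%, 8.87% and 7.5% were called lower on Western diet, after CCl4 and at day 3. The share of all genes called lower in all 3 was not counted, so the 2 members have no background to be read against. Whether a member's response differed between challenges was tested in 1 fit over all 53 libraries and the 12646 genes tested in it. The Western diet response minus the CCl4 response was called for 7 members, 6 higher and 1 lower, against 16.1% of all genes (7.72% higher, 8.37% lower). Sqle fell further on Western diet (difference -2.29, adjusted p = 0.00329). Thrsp (3.83, 0.000671), Scd1 (4.54, 0.00134), Fasn (1.80, 0.0213), Acacb (1.36, 0.0498), Srebf1 (1.86, 0.0032) and Mlxipl (1.29, 0.000113) had lower fold changes after CCl4. Leaving out single livers gave adjusted p up to 0.148 for Acacb and 0.0647 for Fasn. With the D504 oil livers alone as controls the difference of Scd1 was 0.92 (adjusted p = 0.494), that of Fasn 1.20 (0.164) and that of Acacb 0.92 (0.238), none of them called.

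The Western diet response minus the hepatectomy response was called for 2 members, against 3.53% of all genes (2% lower): Sqle (-2.25, adjusted p = 0.0166) and Ebp (-0.84, 0.0175) were lower on Western diet. The CCl4 response minus the hepatectomy response was called for 5 members, all lower after CCl4, against 6.09% of all genes (3.8% lower). These were Scd1 (-5.11, adjusted p = 0.00351), Thrsp (-3.53, 0.00889), Fasn (-2.38, 0.0147), Mlxipl (-1.40, 0.000608) and Ebp (-0.76, 0.0434). Ebp was no longer called without one of several single livers (adjusted p up to 0.146). The count was 10 without labelled knockout 35 and 9 without wild-type liver 7, and the shares of all genes in these reruns are not given here. With the D504 oil livers alone 3 members were called, against 766 of all 12989 genes tested. In that fit Scd1 was at -1.47 (adjusted p = 0.342), Fasn at -1.76 (0.0874) and Ebp at -0.66 (0.124). Each pair of these differences shares 1 of the 3 responses, so they are not independent of each other.

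**Figure D5:**
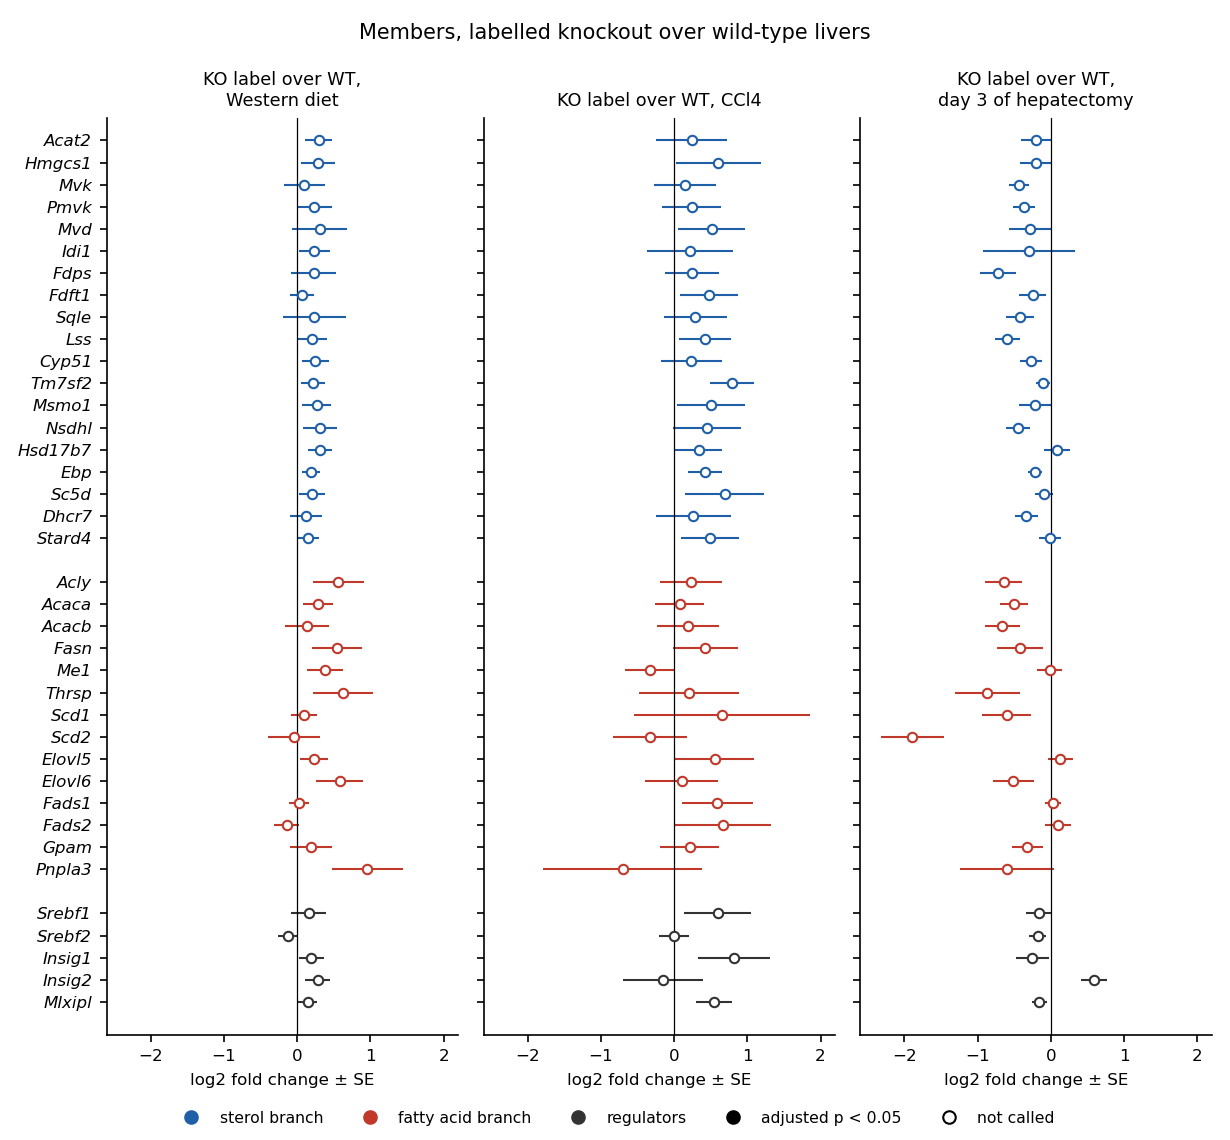
Log2 fold change with its SE of each of the 38 members in labelled knockout against wild-type livers on Western diet, after CCl4 and at day 3 of hepatectomy. No member passed the test in any of the 3, and the points lie mostly above 0 on Western diet and after CCl4 and mostly below 0 at day 3.

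Labelled knockout livers were compared with wild-type livers within each challenge, and no member was called in any of the 3 with low-count genes filtered out. With no filter 3 members were called at day 3, against 182 of all 20684 genes tested, and none on Western diet or after CCl4. On Western diet the fold changes were above 0 for 35 of 38 members, including 19 of 19 sterol genes, with medians of 0.23 in the sterol branch and 0.26 in the fatty acid branch. The sterol median was 0.15 without wild-type liver 23, and the fatty acid median 0.17 without labelled knockout 4. The background was 0.0154% of genes called, and 0 members were under an unadjusted p of 0.05, against 5.89% of all genes. With index as a covariate 4 members were under that p, within index D501 alone 7 and within D502 alone 0, with none called in any of these. DESeq2 called 0 members as well. Sqle had a lowest, median and highest of 2.69, 7.15 and 21.1 CPM in labelled knockouts and 3.52, 5.93 and 15.0 CPM in wild types (0.23, SE 0.43; adjusted p = 0.9197). Fasn had 1388, 2606 and 4291 CPM against 635, 1830 and 2780 CPM (0.54, SE 0.34; adjusted p = 0.815). Scd1 had 41271, 52288 and 64086 CPM in labelled knockouts and 38443, 48636 and 61152 CPM in wild types (0.10, SE 0.18; adjusted p = 0.916). Ranges overlapped for all of these genes, no member had groups that did not overlap, against 0.0846% of all genes, and the sterol minus fatty acid difference ran from -1.32 to -0.38 in labelled knockouts and from -0.95 to -0.67 in wild types. Among the markers, 6 of 6 macrophage, 6 of 6 stellate and 4 of 4 dividing-cell genes had fold changes below 0 (medians of -0.26, -0.35 and -0.34) and 8 of 8 hepatocyte genes above 0 (median 0.07), none of them called. Stellate markers summed to 247 to 733 CPM in labelled knockouts and 387 to 853 CPM in wild types, macrophage markers to 197 to 855 against 349.7 to 749 CPM, dividing-cell markers to 7.42 to 31.3 against 9.44 to 36.8 CPM and hepatocyte markers to 68323 to 95339 against 61943 to 91521 CPM, and their part in the result was not tested.

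After CCl4, 33 of 38 members were above 0, again with 19 of 19 sterol genes, and the medians were 0.42 and 0.21. The background was 0.00857% called, DESeq2 called 0 members, and 2 members were under an unadjusted p of 0.05, against 6.16% of all genes: Tm7sf2 (0.79, SE 0.30; adjusted p = 0.7695) and Mlxipl (0.55, SE 0.24; adjusted p = 0.782). Tm7sf2 had 30.3, 74.4 and 109 CPM as lowest, median and highest in labelled knockouts, against 41.1, 64.2, 46.0 and 25.7 CPM in wild types 4, 5, 7 and 34. Mlxipl had 124, 221 and 295 CPM against 92.5, 154, 212.5 and 130.2 CPM. The groups overlapped for all 38 members, against 0.952% of genes that did not overlap. Without wild-type liver 34 alone 20 of 38 members were above 0, with medians of 0.09 in the sterol branch and -0.09 in the fatty acid branch. Without livers 34 and 35 together 30 of 38 were above 0, with medians of 0.23 and 0.06 in the same order. Within index D503, which holds neither of them, 26 of 38 were above 0, with medians of 0.18 and 0.08. The fatty acid median was 0.56 without wild-type liver 7 and 0.03 without labelled knockout 9, and the sterol median 0.24 without labelled knockout 22. Dividing-cell markers were below 0 for 4 of 4 genes and summed to 18.3 to 506.2 CPM in labelled knockouts and 18.4 to 455 CPM in wild types; hepatocyte markers were above 0 for 6 of 8 genes and summed to 105362 to 168254 against 75626 to 131889 CPM. None of these markers was called, and their part in the result was not tested.

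At day 3 of hepatectomy 33 of 38 members were below 0, with medians of -0.28 in the sterol branch and -0.51 in the fatty acid branch. The sterol median was -0.09 without labelled knockout 20 and -0.46 without labelled knockout 17, and the fatty acid median -0.30 without wild-type liver 12 and -0.32 without labelled knockout 20. The background was 0.154% called, DESeq2 called 0 members, and 13 members were under an unadjusted p of 0.05, against 9.08% of all genes, or 6 without labelled knockout 20 and 19 without labelled knockout 17. With no filter on low counts Scd2 (-1.88, adjusted p = 0.000308) and Lss (-0.59, 0.0259) were called lower and Insig2 (0.60, 0.0166) higher. Scd2 had 7.31, 16.9, 3.16 and 11.7 CPM in labelled knockouts 17 to 20, against 54.0, 21.1, 16.4, 27.1 and 64.2 CPM in wild types 12 to 16. Labelled knockout 18 lay just above wild type 14, and the difference had the smallest adjusted p of the 38 (-1.89, SE 0.43; adjusted p = 0.0819). Mvk had 31.4, 23.3, 28.9 and 25.1 CPM against 41.0, 39.5, 32.5, 35.2 and 35.2 CPM (-0.43, SE 0.14; adjusted p = 0.298), and Ebp had 313, 270.1, 275 and 290.3 CPM against 317, 319, 334, 343 and 351.5 CPM (-0.21, SE 0.09; adjusted p = 0.503). These 2 members had groups that did not overlap, against 2.68% of all genes. The sterol level was -0.16, -0.43, -0.71 and -1.08 in labelled knockouts 17 to 20, and -0.35 to -0.05 in wild types. Hepatocyte markers were below 0 for 7 of 8 genes and stellate markers for 5 of 6, with none called, and summed to 129150 to 154125 and 198 to 659 CPM in labelled knockouts, against 132682 to 153848 and 230.5 to 660.1 CPM in wild types, and their part was not tested. The label effect itself was not called as different for any member between Western diet and CCl4 (0% of all genes called), Western diet and hepatectomy (0.0158%) or CCl4 and hepatectomy (0.0395%), with 0, 4 and 6 members under an unadjusted p of 0.05 in the same order, and the smallest adjusted p was 0.304, between the CCl4 and hepatectomy effects.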

How the data were processed

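Messenger RNA of 53 liver samples was sequenced by the authors, those of day 0 being resected tissue. They deposited whole-number counts per Ensembl gene, 1 table per experiment, not normalized. Per the submitters' processing notes the build was GRCm38 and the tools TopHat2 2.0.11 and HTSeq, and the annotation release and strand setting are not given in the sources used here. From these deposited counts, edgeR 4.0.16 in R 4.3.3 was run per experiment over its 3 groups (filterByExpr by group, TMM, quasi-likelihood F-test, Benjamini-Hochberg over all genes tested), with 13005, 11663 and 11026 genes tested. Differences between challenges were tested in 1 fit of all 53 libraries over the 36410 shared genes, of which 12646 passed the filter. The members of all 3 tables were matched through GENCODE vM21 symbols. The members and gene lists were chosen with earlier results of these data known, so no test was made of a list.

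In the wild-type comparisons, values in every liver (in groups of over 5, the lowest, median and highest) are given for the anchors Srebf2, Insig1, Hmgcs1, Sqle, Srebf1, Mlxipl, Acly, Fasn and Scd1 and, per challenge, for up to 6 called members with the smallest adjusted p whose groups did not overlap. Stard4, Pnpla3, Scd2 on Western diet and Fdps are outside this rule and were named after their values were seen, as were the members given in the labelled knockout comparisons. Context genes were named from lists of related genes, up to 4 called genes a list. Branch levels used a pseudocount of 0.5 CPM. A count of 0 allows up to 3 counts in a library (95%), and depth of 2450358 to 15196537 counts limits low genes such as Pnpla3, Idi1 and Scd2 most; such floors cover counting error only. Each library is labelled as 1 liver, and no 2 libraries of a group agreed within sampling noise. Alternatives were DESeq2 1.42.0 (its size factors and its Wald test), no filter, the index as covariate or within an index, the replicate block, and leaving out livers; those within an index and those with oil livers of 1 index were chosen after the values were seen. The fitting steps were tested on simulated data.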

Additional observations from a re-analysis of the deposited data

Results flagged for a closer look

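Values were tested for 1 liver standing apart from the rest of its group in 153 sets (15 genes and 2 branch levels in 9 groups), and 10 were found; chance gives about 1 in 20. Labelled knockout CCl4 liver 35 accounted for 6 of them: Srebf1 at 49.32 CPM (others 156 to 307), Hmgcs1 at 84.11 CPM (others 621 to 1031), Mvk at 14.27 CPM (others 31.2 to 44.7), Idi1 at 30.29 CPM (others 240.0 to 397), Acly at 90.37 CPM (others 231 to 316) and the sterol level at -1.530 (others 0.04 to 0.47). Wild-type CCl4 liver 34 had Insig1 at 27.84 CPM, against 194 to 283 CPM in the others. In day 3 liver 12, Hsd17b7 was at 72.95 CPM (others 52.2 to 57.0) and the sterol level at -0.053 (others -0.35 to -0.27). In day 0 liver 13, Acly was at 227.9 CPM (others 366 to 423). The part of dividing-cell markers in livers 34 and 35, and of adipocyte transcripts in day 3 liver 12, was not tested.

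Responses differed between challenges, by an interaction test, for 14 member differences. Western diet minus CCl4 gave -2.294 for Sqle, 1.358 for Acacb, 1.803 for Fasn, 3.827 for Thrsp, 4.538 for Scd1, 1.862 for Srebf1 and 1.295 for Mlxipl. Western diet minus hepatectomy gave -2.247 for Sqle and -0.843 for Ebp. CCl4 minus hepatectomy gave -0.763 for Ebp, -2.384 for Fasn, -3.532 for Thrsp, -5.109 for Scd1 and -1.396 for Mlxipl, all on the log2 scale.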

How the results depend on the processing

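No called member changed direction under any alternative run: 1593 recomputed values kept their call and 142 lost it. Of the counts of members called, 482 recomputed values lay within 1.5 times the reported count and 10 did not. This tally says little of the labelled knockout comparisons and their differences. No member was called there, and a rerun that again called none counted as within. Some reruns also left out a liver of a group outside the comparison. Branch medians were less stable: of 276 recomputed, 36 moved by over 1.5 times or changed sign, although only 1 moved by more than 1 SD of the branch level between livers. The 2 that changed sign were fatty acid medians, at 0.174 within index D501 for Western diet against low-fat diet and -0.093 without wild-type CCl4 liver 34 for the labelled knockout comparison. For reruns without 1 liver the share of all genes called is not given, so those counts of members have no background to be read against. Western diet against low-fat diet called 17 to 21 members when single livers were left out and 9 within index D502. CCl4 against olive oil called 4 (without wild-type liver 5) to 9 (without labelled knockout 35), 20 with the index as covariate, where the sterol median was -1.135 and the fatty acid median -2.116, and 3 with the D504 oil livers only. Day 3 against day 0 called 8 to 13. The labelled knockout comparison at day 3 called 3 members with no filter on low counts. The Western diet and hepatectomy responses differed for 4 members without CCl4 livers 34 and 35, against 1025 of all 12961 genes tested. The CCl4 and hepatectomy responses differed for 9 members by DESeq2's Wald test, against 1085 of all 12646 genes tested. They differed for 3 members with the D504 oil livers only. With single livers left out the count was 4 (without low-fat liver 20) to 10 (without labelled knockout 35). Beyond fewer samples or genes, the cause was not tested.

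The day 3 and day 0 livers share the numbers 12 to 16, which the labels do not tie to an animal. Among these, the sample titles put an N after the number for day 3 livers 12, 13 and 14 and for day 0 liver 12. Deviations of same-numbered livers correlated at 0.05, -0.01, -0.04, 0.07 and 0.11 for numbers 12 to 16. Numbers 12, 15 and 16 correlated best with their own number, and 13 and 14 better with another. Whether same-numbered livers came from the same animal was not tested beyond these values. The main comparison treated the samples as unpaired. A replicate block by number ignored the N, so it joined 13 and 14 across titles that differ. With that block, 12 of 36 members tested were called (7 sterol genes lower, 3 fatty acid genes higher), against 1710 of all 10428 genes tested. Libraries of the toxin and surgery experiments are shallower, and no comparison of CCl4 with oil within an index could be made.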
